A study of Mus musculus with 18 samples.

Results

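The genes described here are 37 imprinted genes of the mouse, chosen by name from known imprinted clusters and followed through 6 groups of embryonic stem cell arrays. Of these, 34 had a probe set annotated to them alone, among 18193 genes measured in that way. H19 was read only by a probe set annotated jointly to Mir675 and H19, and Slc22a3 and Zrsr1 were not analysed here. A gene with several probe sets, as 22 of the 34 had, was represented by the one with the highest mean log2 value over the 18 arrays. By the allele that is usually active, 17 of the 34 are paternally expressed, 13 maternally expressed and 4 vary by tissue.

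An imprinted gene is transcribed mainly from the copy inherited from one parent, because a control region in its neighbourhood was methylated in either the egg or the sperm. The genes lie in clusters in which protein-coding genes share a control region with long noncoding RNAs, and many act on fetal growth, the placenta and metabolism. The proteins ZFP57 and TRIM28 keep these methyl marks through early development, and cultured embryonic stem cells are known for losing or gaining them. The arrays measure the sum of both alleles and no methylation, so allelic origin is given below only as background.

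The transfected cells were CGR8 embryonic stem cells grown in GMEM with serum and LIF, the cytokine that holds them undifferentiated, and received plasmids by lipofection. Their groups were the empty vector, Foxd3 (a forkhead transcription factor), CA-NFATc3 (a form of NFATc3, a transcription factor that calcineurin switches on), and Foxd3 together with CA-NFATc3. The other cells were conditional knockouts for Foxd3 (Foxd3fl/fl:Cre-ERT), in which tamoxifen starts deletion by the Cre recombinase; they had tamoxifen for 0 days (DMSO) or 2 days. Each group had 3 biological replicates, 1 array each, and the labels give both kinds of cell the same source name. The sources used here do not give feeder cells, the time after transfection or the number of clones behind the knockout cells.

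Median signals were 55.2 to 67.1 in the transfected arrays and 73.0 to 80.7 in the knockout arrays, and replicates correlated at 0.981 to 0.988. All 8 pluripotent cell markers stood above the detection threshold used below in every group, with summed signals from 84280 with tamoxifen to 121800 with vector. The Foxd3 signal went against both labels that hold Foxd3. It averaged 443 ± 55.9 with vector and 237 ± 5.95 in the arrays labelled Foxd3 (SD, n = 3), where a rise would follow from the label, and 234 ± 37.7 in those labelled Foxd3 and CA-NFATc3. The sources used here do not say whether the probe set reads the plasmid's transcript, so these arrays are called by their labels throughout. In the knockout cells Foxd3 averaged 219 ± 25.9 with DMSO and 31.4 ± 29.6 with tamoxifen. Nfatc3 averaged 1581 ± 31.4 with vector and 1732 ± 58.5 in the arrays labelled CA-NFATc3. It averaged 1723 ± 23.9 in the arrays labelled Foxd3, 1817 ± 28.6 with both, 1889 ± 54.5 with DMSO and 1786 ± 73.8 with tamoxifen. Its signal thus did not set the arrays labelled CA-NFATc3 apart.

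Promoter windows ran from 250 bases before to 50 after a RefSeq transcript start (assembly GRCm38.p6). They were looked up only for the 34 genes with a probe set of their own, and 46 starts of 31 genes were kept. Any window on the chromosome of Impact was left out for these genes, with no such step for the windows of all genes. Impact, Peg10 and Sgce have no window here. The windows below belong to Mest and Plagl1, which separated the knockout from the transfected cells, to Meg3, which differed in the arrays labelled Foxd3, and to Igf2, which differed most with CA-NFATc3. For Mest, Meg3 and Igf2 each is 1 of several starts, and for Igf2 the start with the most GGAAA was chosen. The Mest and Meg3 starts shown hold TGCCGC, where another start of each gene holds 0. Capitals mark TGCCGC, the core hexamer bound by ZFP57, on either strand in the first 3, and GGAAA, the core bound by NFAT, on either strand in Igf2; each runs 5′ to 3′ along its gene's strand.

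Mest, chr6:30737800-30738099, plus strand: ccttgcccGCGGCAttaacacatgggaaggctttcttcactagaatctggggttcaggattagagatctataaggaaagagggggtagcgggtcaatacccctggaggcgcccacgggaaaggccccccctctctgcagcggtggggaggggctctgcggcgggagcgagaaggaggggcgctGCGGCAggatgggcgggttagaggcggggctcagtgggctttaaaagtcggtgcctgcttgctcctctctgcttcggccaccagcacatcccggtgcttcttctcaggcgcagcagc
Plagl1, chr10:13090582-13090881, plus strand: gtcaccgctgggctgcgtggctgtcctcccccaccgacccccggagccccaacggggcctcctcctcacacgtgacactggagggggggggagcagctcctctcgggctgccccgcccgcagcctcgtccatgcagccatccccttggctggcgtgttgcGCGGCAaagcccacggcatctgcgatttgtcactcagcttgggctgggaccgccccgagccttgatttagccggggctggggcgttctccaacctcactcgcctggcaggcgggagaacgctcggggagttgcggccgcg
Meg3, chr12:109540746-109541045, plus strand: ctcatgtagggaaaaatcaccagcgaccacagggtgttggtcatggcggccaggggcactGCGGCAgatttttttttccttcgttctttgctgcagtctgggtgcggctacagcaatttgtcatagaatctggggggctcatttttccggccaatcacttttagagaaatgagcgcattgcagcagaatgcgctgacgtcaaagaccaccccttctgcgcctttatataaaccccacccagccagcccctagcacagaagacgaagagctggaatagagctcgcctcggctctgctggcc
Igf2, chr7:142661222-142661521, minus strand: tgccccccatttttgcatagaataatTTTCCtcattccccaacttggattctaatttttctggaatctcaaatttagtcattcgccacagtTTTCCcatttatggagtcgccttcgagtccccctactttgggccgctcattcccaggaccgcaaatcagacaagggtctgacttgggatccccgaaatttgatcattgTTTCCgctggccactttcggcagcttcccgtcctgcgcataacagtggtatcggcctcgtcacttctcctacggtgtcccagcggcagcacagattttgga

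TGCCGC, searched on both strands, lay in 11 of the 46 windows (23.9%), against 11.6% of the 32851 windows of all genes. Windows of nearby starts overlap, and 2 of the 11 are Mest windows that hold the same matches. GGAAA lay in 47.8% of the windows of the imprinted genes and in 61.3% of all windows, and TGTTTA, a forkhead core, in 8.7% and 13.4%. None of these motifs contains another. The Mest window held 2 TGCCGC matches, 2 GGAAA matches and 17 CpG dinucleotides. The Plagl1 window held 1, 0 and 26 of these, the Meg3 window 1, 3 and 13, and the Igf2 window 1, 3 and 14, while only 1 motif is marked in each sequence above. The median over the 46 windows was 13.5 CpG, against 7 over all windows. A match is a description of letters and not a site.

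Several of the long transcripts also carry microRNAs, which these probe sets do not read. RefSeq places 10 hairpins inside Mirg, 3 inside Rian, 1 inside Meg3, 1 inside Mest and 1 inside Igf2. The mature sequences below, with the seed (bases 2 to 8) in capitals, are shown because their host transcripts carry the differences that follow. Within Mirg, miR-453 and miR-496a-5p share the seed GGUUGCC.

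miR-410-3p (Mirg): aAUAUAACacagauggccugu
miR-453 (Mirg): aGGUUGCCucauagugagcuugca
miR-496a-5p (Mirg): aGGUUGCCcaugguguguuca
miR-335-5p (Mest): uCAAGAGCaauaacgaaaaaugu
miR-483-3p (Igf2): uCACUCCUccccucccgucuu

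Detection divided the 34 genes. A signal was taken as detected at 65.8, the median of all deposited values. In all 18 arrays, 16 of the 34 genes reached it. Another 9 reached it in 0 of the 12 transfected arrays, and 3 of these, Mest, Plagl1 and Gatm, reached it in all 6 knockout arrays. Usp29, Zim1 and Snrpn reached it in 0 of 18 arrays, and Asb4 in 1 of 18. Genes detected in at least 3 arrays of a fit were tested, which kept 22 of the 34 in the transfected cells, 29 in the knockout cells and 30 where both kinds of cell were fitted together. Signals of different probe sets are on different scales, so levels are compared only within a gene. In these whole-culture samples, fewer cells of a type and less RNA per cell cannot be told apart.

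The noncoding RNAs of the Dlk1-Meg3 cluster and Gnas were higher in the arrays labelled Foxd3 than with vector. Of the 22 genes tested, 4 were called at an adjusted p under 0.05 (limma), all of them higher: Meg3, Rian, Mirg and Gnas. Over all genes tested, 2.88% were called, 1.71% higher and 1.17% lower. The median difference was 0.06 over the 22 genes and -0.01 over all genes, on the scale of log2(signal + 32) used for every difference below. Of the 4, 3 are maternally expressed noncoding RNAs of 1 cluster.

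Meg3, the first of these noncoding RNAs, had signals of 4533, 5168 and 5552 with vector and 7257, 7345 and 7938 in the arrays labelled Foxd3. They were 5720.2, 5244 and 6128 with CA-NFATc3 and 7365, 7518 and 8802 with both. Both groups whose label holds Foxd3 lay above both groups whose label does not, with no overlap. The difference of the arrays labelled Foxd3 from vector was 0.56 ± 0.09 (SE; adjusted p = 0.00155). Meg3 has 11 probe sets, and all 11 gave a positive difference, from 0.27 to 0.65.

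Rian, a noncoding RNA that carries small nucleolar RNAs, had signals of 2266, 2988 and 2779.8 with vector and 3917, 4880.4 and 4944 in the arrays labelled Foxd3. The CA-NFATc3 arrays gave 2908, 2968 and 3166, and those with both 4449, 4537 and 4347. The pattern was that of Meg3, with no overlap between groups with and without Foxd3 in the label. The difference from vector was 0.77 ± 0.10 (adjusted p = 0.000401) in the arrays labelled Foxd3.

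Mirg, the microRNA host of the cluster, had signals of 397, 365 and 411 with vector and 548, 585 and 712 in the arrays labelled Foxd3. The CA-NFATc3 arrays gave 486, 297 and 427, and those with both 545, 533 and 559.7. The arrays with Foxd3 in the label were again the higher ones, and the CA-NFATc3 arrays spread around vector. The difference from vector was 0.61 ± 0.14 (adjusted p = 0.0329), and it was no longer called without any 1 of the 3 vector arrays or replicates 2 or 3 labelled Foxd3, where the adjusted p reached 0.173. Dlk1, the paternally expressed membrane protein of the same cluster, was detected in 1 of the 12 transfected arrays, with signals from 22.6 to 69.7, and was not tested there.

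Gnas encodes the stimulatory G protein alpha subunit from a locus with several overlapping transcripts. Its signals were 2819.5, 3355 and 3006 with vector and 4102, 4359.9 and 4309 in the arrays labelled Foxd3. They were 3224, 3522 and 3453 with CA-NFATc3 and 4444, 4465 and 4236 with both. The groups with Foxd3 in the label lay above the other groups without overlap. The difference from vector was 0.48 ± 0.07 (adjusted p = 0.00111). The other 4 Gnas probe sets had group means of 1.60 to 48.8, all below detection, and 2 of the 4 were undetected in every array. The call ended when all 5 were averaged (adjusted p = 0.717).

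**Figure D1:**
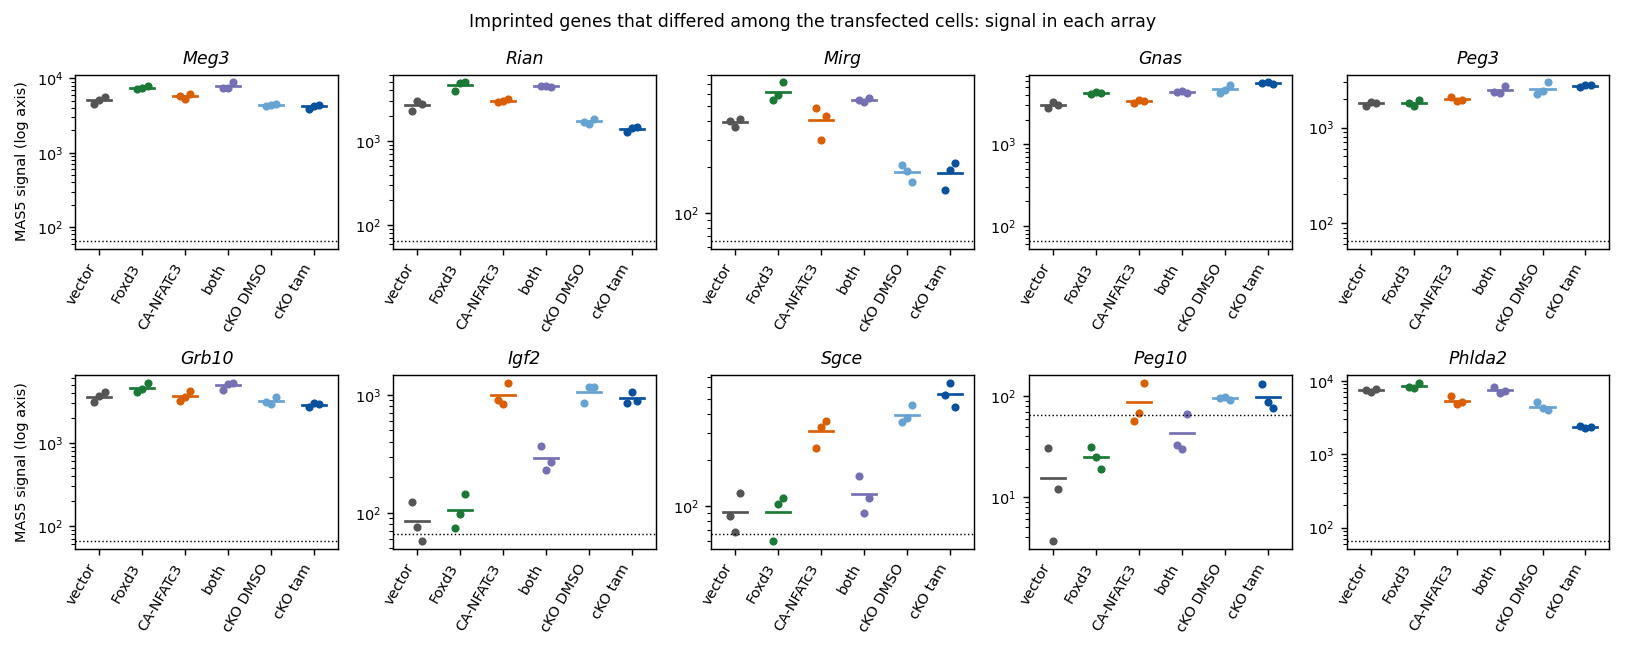
Each point is the MAS5 signal (log axis) of 1 array and each short line the mean of 3, for 10 imprinted genes in the 6 groups; the dotted line is the detection threshold of 65.8. Meg3, Rian and Gnas are higher wherever the label holds Foxd3 among the transfected cells, and Igf2 averages 85.6 with vector, 1008 with CA-NFATc3 and 291 with both.

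Same-numbered arrays of the transfected groups deviated together, and with the replicate number as a block 7 of the 22 genes were called, with 783 of all 11609 genes called in place of 334. The added genes were Grb10, Ddc and Ndn. Grb10, an adaptor that restrains insulin and IGF signalling, had signals of 3105, 3632 and 4056 with vector, 4052, 4499 and 5192 in the arrays labelled Foxd3, 3179.6, 3592 and 4186 with CA-NFATc3 and 4313, 5135 and 5297 with both. Its groups overlapped, while each array labelled Foxd3 exceeded the vector array of its number, and the difference was 0.35 ± 0.12 (adjusted p = 0.164 without the block and 0.000761 with it). Ddc, the aromatic amino acid decarboxylase beside Grb10, had signals of 3321, 3150.4 and 4176 with vector, 2668, 2649.6 and 3174 in the arrays labelled Foxd3, 3935, 3596 and 4073 with CA-NFATc3 and 3188, 2969.8 and 3446 with both. Its difference was -0.32 ± 0.10 (adjusted p = 0.130, and 0.00456 with the block), opposite in sign to that of Grb10. Ndn differed by 0.28 ± 0.08 (adjusted p = 0.0630, and 0.0229 with the block).

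With CA-NFATc3 alone, the fetal growth factor Igf2 was higher by over 3 units of log2, and the pair Sgce and Peg10 was higher as well. Of the 22 genes tested, 5 were called: Igf2, Sgce, Peg10 and Ndn higher, all of them paternally expressed, and Phlda2, maternally expressed, lower. Peg10 reached 65.8 in 0 vector arrays, 0 labelled Foxd3, 2 with CA-NFATc3 and 1 with both. It was thus tested only through groups with CA-NFATc3, so its place among the genes called higher supports nothing. Over all genes 5.86% were called, 4.62% higher and 1.24% lower. The median difference was 0.08 over the 22 genes and near 0 (-0.005) over all genes.

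Igf2 had signals of 123, 76.0 and 57.6 with vector and 74.9, 97.2 and 143 in the arrays labelled Foxd3. The CA-NFATc3 arrays gave 908, 845 and 1270.5, and those with both 372, 230.3 and 271. The CA-NFATc3 arrays stood above all others, the arrays with both stood between, and the vector arrays overlapped those labelled Foxd3. The difference of CA-NFATc3 from vector was 3.16 ± 0.23 (adjusted p = 3.64e-07). The second Igf2 probe set averaged 15.6 to 30.0 in the 6 groups and was detected in none of them.

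Sgce encodes epsilon-sarcoglycan, and its promoter lies head to head with that of Peg10, a retrotransposon-derived gene needed in the placenta. Sgce signals were 87.1, 67.9 and 123 with vector, 59.6, 104 and 113 in the arrays labelled Foxd3, 239, 331 and 357 with CA-NFATc3 and 158, 91.2 and 114 with both. The CA-NFATc3 arrays were above the rest without overlap, with a difference from vector of 1.46 ± 0.23 (adjusted p = 0.000667, and 0.0595 with its probe sets averaged). Peg10 signals were 30.6, 3.65 and 11.9 with vector, 31.3, 25.1 and 19.1 in the arrays labelled Foxd3, 56.4, 68.1 and 136 with CA-NFATc3 and 32.7, 30.2 and 65.9 with both. Since vector lay below detection, the CA-NFATc3 mean was at least 1.32-fold higher, counted against 65.8 (difference 1.31 ± 0.29, adjusted p = 0.0118). Without vector replicate 2 the adjusted p of Peg10 was 0.0602, and without CA-NFATc3 replicate 2 or 3 it fell below the threshold for testing.

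Phlda2, which restrains placental growth, had signals of 7536, 7013 and 7695 with vector and 8263, 7874 and 9387 in the arrays labelled Foxd3. The CA-NFATc3 arrays gave 6182, 4747 and 5083, and those with both 8089.6, 6905 and 7337. The CA-NFATc3 arrays were the lowest of the 12 without overlap, and the difference from vector was -0.48 ± 0.09 (adjusted p = 0.00423). Ndn encodes necdin, a growth suppressor of the MAGE family, and had signals of 1166, 1065 and 1032 with vector, 1382, 1283 and 1322 in the arrays labelled Foxd3, 1281, 1339.7 and 1443 with CA-NFATc3 and 1299, 1262 and 1342 with both. The vector arrays were the lowest, and the CA-NFATc3 difference was 0.31 ± 0.08 (adjusted p = 0.0246). The Ndn call was lost without vector replicate 2 or 3 or CA-NFATc3 replicate 2 or 3 (adjusted p up to 0.157), with only these groups fitted, and with its 8 probe sets averaged, of which 3 were undetected (0.419). Cd81, a tetraspanin of the Kcnq1ot1 cluster, had signals of 5850.3, 7444 and 6712 with vector, 6299, 6892 and 6892 in the arrays labelled Foxd3, 7361, 8285 and 8327 with CA-NFATc3 and 6332, 7517 and 7408 with both. Its CA-NFATc3 difference of 0.26 ± 0.09 was not called (adjusted p = 0.114), and was called with the replicate block (0.00380) and with array weights (0.0470).

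Markers of other cell types moved in the same arrays. The summed signal of 14 primitive endoderm markers was 7607 to 10070 with CA-NFATc3 against 4650 to 5224 with vector, with 4 of 10 tested called higher and Foxa2, Afp and Ttr undetected. That of 12 trophoblast markers was 5395 to 5953 against 3468 to 4100, with 5 of 9 tested called higher and Cdx2, Gata3 and Tpbpa undetected. Among the transfected arrays, Elf5 and Cited1 were detected only with CA-NFATc3 alone, and Sox17 only in groups with CA-NFATc3. These markers, all called higher, were thus tested only through groups with CA-NFATc3, so their place in these counts supports nothing. Over all genes 4.62% were called higher with CA-NFATc3. With both, the sums were 5333 to 5537 and 3483 to 3695, and in the arrays labelled Foxd3 4682 to 4797 and 2955 to 3618. The 7 primed epiblast markers summed to 4338 to 6893 with vector, 10990 to 12690 in the arrays labelled Foxd3, 7234 to 9178 with CA-NFATc3 and 8402 to 11580 with both. The 9 fibroblast markers summed to 226 to 328 with vector, 315 to 410 in the arrays labelled Foxd3, 432 to 618 with CA-NFATc3 and 673 to 750 with both. Dcn, Postn, Lum, Fap and Col1a1 were undetected in all 4 groups. Of 3 tested, 0 were called in the arrays labelled Foxd3, 1 (Col3a1) was higher with CA-NFATc3 and 2 (Col1a2 and Col3a1) with both. Col3a1 was detected only in groups with CA-NFATc3, so its calls support nothing. The part of these cell types in the imprinted gene differences was not tested.

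**Figure D2:**
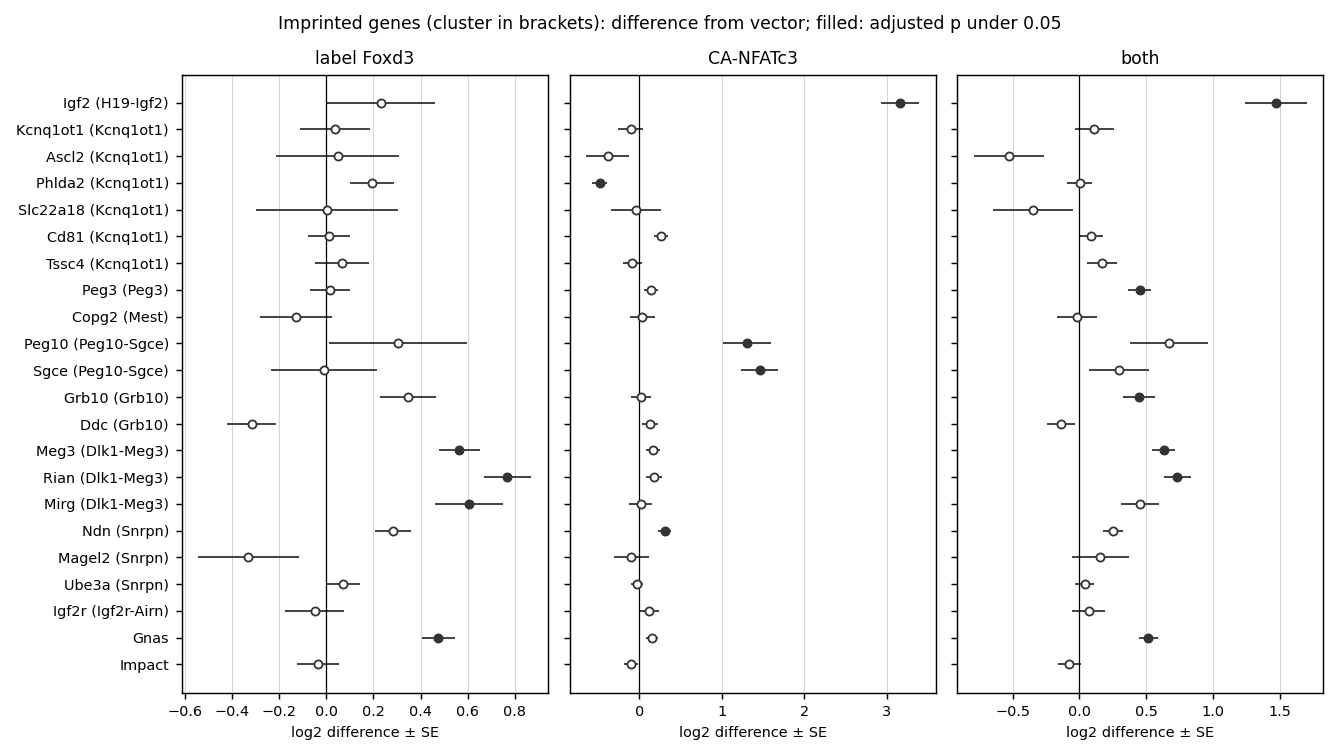
Differences from vector (log2 of signal + 32, with SE) for the 22 imprinted genes tested in the transfected cells, with filled points for adjusted p under 0.05 and a separate axis range in each panel. The arrays labelled Foxd3 show the Dlk1-Meg3 RNAs and Gnas, CA-NFATc3 shows Igf2 at 3.16, Sgce and Peg10, and the arrays labelled with both show Igf2 at 1.47 beside Meg3, Rian and Gnas.

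With Foxd3 and CA-NFATc3 together, 6 of the 22 genes were called against vector, all of them higher, where 4.82% of all genes were called, 3.48% higher and 1.34% lower. The 6 were Igf2, Meg3, Rian, Gnas, Peg3 and Grb10, and the median difference was 0.16 over the 22 genes. These comparisons share the vector arrays, so their values are set side by side without a test of overlap. Meg3 differed by 0.63 ± 0.09 (adjusted p = 0.000363), beside 0.56 in the arrays labelled Foxd3 and 0.17 with CA-NFATc3. Rian differed by 0.73 ± 0.10 (adjusted p = 0.000346), beside 0.77 and 0.18. Gnas differed by 0.52 ± 0.07 (adjusted p = 0.000336), beside 0.48 and 0.15. For all 3, the value with both was near that of the arrays labelled Foxd3. The Gnas call again ended with its probe sets averaged (adjusted p = 0.885).

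Igf2 with both differed from vector by 1.47 ± 0.23 (adjusted p = 0.00114), less than with CA-NFATc3 alone. Peg3, a zinc finger protein of its own cluster, had signals of 1689.7, 1864 and 1829 with vector, 1814, 1667 and 1967 in the arrays labelled Foxd3, 2109, 1881 and 1944 with CA-NFATc3 and 2358, 2325 and 2724 with both. The arrays with both were above all others, by 0.45 ± 0.08 against vector (adjusted p = 0.00480, and 0.219 with its 5 probe sets averaged, of which 2 were undetected). Grb10 differed by 0.45 ± 0.12 (adjusted p = 0.0416), a call lost without vector replicate 1 or 2 or replicate 2 or 3 of both (adjusted p up to 0.166), without the filter, with its probe sets averaged and with all probe sets tested. With the replicate block Mirg (0.45, adjusted p = 0.0321) and Ndn (0.25, adjusted p = 0.0312) were called as well, and 1122 of all genes in place of 559.

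Against CA-NFATc3 alone, the arrays with both had 8 of the 22 genes called, 6 higher and 2 lower, where 6.12% of all genes were called, 2.44% higher and 3.69% lower. Igf2 was lower, with a difference of -1.69 ± 0.23 (adjusted p = 0.000285), and so was Sgce, with -1.16 ± 0.23 (adjusted p = 0.00466, and 0.343 with its probe sets averaged). Phlda2 was higher by 0.48 ± 0.09 (adjusted p = 0.00439), and its signals overlapped those of vector. The other genes called higher were Meg3 (0.47, adjusted p = 0.00324), Rian (0.56, 0.00256), Gnas (0.36, 0.00426), Peg3 (0.31, 0.0372) and Grb10 (0.43, 0.0449). This comparison and that of CA-NFATc3 against vector share the CA-NFATc3 arrays with opposite sign. Peg3 was lost without CA-NFATc3 replicate 2 or 3 or replicate 1 or 3 of both (adjusted p up to 0.181), with its probe sets averaged, with only these groups fitted and with all probe sets tested. Grb10 was lost without CA-NFATc3 replicate 1 or 2 or replicate 2 or 3 of both (adjusted p up to 0.182) and under 5 other settings, and Gnas with its probe sets averaged (0.979). The replicate block added Cd81 (-0.17, adjusted p = 0.0427), Ddc (-0.27, 0.00791) and Mirg (0.43, 0.0350), with 1258 of all genes called in place of 711.

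Against the arrays labelled Foxd3, those labelled with both had 2 of the 22 genes called, both higher, where 0.327% of all genes were called, 0.319% higher and 0.00861% lower. They were Igf2 (1.24 ± 0.23, adjusted p = 0.0283) and Peg3 (0.44 ± 0.08, adjusted p = 0.0350). Neither gene's groups overlapped. Igf2 lost its call without replicate 1 or 2 labelled Foxd3 or replicate 1 or 3 of both (adjusted p up to 0.160) and with its probe sets averaged (0.345). Peg3 lost it without 5 of the 6 arrays, all but replicate 3 labelled Foxd3 (adjusted p up to 0.246), with its probe sets averaged, with only these groups fitted and with all probe sets tested. With the block 96 of all genes were called in place of 38.

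The interaction asks whether the Foxd3 label goes with the same difference in the presence of CA-NFATc3 as in its absence. Igf2 was the 1 gene called of the 22, and 0.810% of all genes were called, 0.0861% higher and 0.724% lower. The Foxd3 label went with a difference in Igf2 of 0.23 from vector and of -1.69 from CA-NFATc3, so that the interaction was -1.92 ± 0.33 (adjusted p = 0.00748). It kept its call in each fit without 1 array and lost it with its probe sets averaged (adjusted p = 0.0553), of which the second was undetected. With the block 245 of all genes were called in place of 94.

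After 2 days of tamoxifen the knockout cells differed from those with DMSO in 12 of the 29 genes tested, 7 higher and 5 lower. Ndn, Impact, Plagl1, Igf2r, Sgce, Cd81 and Gnas were higher, and Ascl2, Phlda2, Copg2, Ddc and Rian were lower. This was 41.4% of them, against a background of 34.4% of all genes called, 17.5% higher and 16.9% lower. By usual allele, 4 of 14 paternally expressed genes were higher, and of 11 maternally expressed genes 2 were higher and 4 lower. Ascl2, among the lower, reached 65.8 in 3 DMSO arrays and 1 tamoxifen array. It was thus tested only through the group where it was high, so its place in these counts supports nothing. The median difference was -0.05 over the 29 genes and -0.01 over all genes.

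Ndn had signals of 1404, 1341 and 1368 with DMSO and 2549, 2479 and 2519 with tamoxifen. The groups stood far apart, with a difference of 0.86 ± 0.06 (adjusted p = 6.07e-07), and the 5 detected Ndn probe sets of 8 rose, by 0.74 to 1.03, while the other 3 were undetected in all 18 arrays. Impact, a regulator of translation, had signals of 2939.7, 2780.2 and 2807 with DMSO and 4064, 4115 and 3957 with tamoxifen, again without overlap, and differed by 0.50 ± 0.05 (adjusted p = 2.20e-05). A second of its 3 probe sets differed by 0.05, the other was undetected in most arrays, and with the 3 averaged the call ended (adjusted p = 0.307). Igf2r, the receptor that clears IGF2 from outside the cell, had signals of 1295, 1251 and 1332 with DMSO and 1694, 1662 and 1637 with tamoxifen. It differed by 0.36 ± 0.06 (adjusted p = 0.00106), while Igf2 itself, at 848, 1161 and 1168 with DMSO and 856, 1059 and 891 with tamoxifen, did not pass the test (-0.16 ± 0.12, adjusted p = 0.328) and its groups overlapped.

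Plagl1, a zinc finger transcription factor, had signals of 431, 563 and 575 with DMSO and 705, 785 and 774 with tamoxifen. The groups were apart and differed by 0.51 ± 0.11 (adjusted p = 0.00406). The call was lost in the fit of all 18 arrays and with the 3 Plagl1 probe sets averaged (0.200 at most), of which 2 were undetected. Cd81 had signals of 7439, 7792 and 8283 and 9178, 9657 and 9688, and differed by 0.28 ± 0.05 (adjusted p = 0.00135). Gnas had signals of 4258, 4611 and 5324 and 5740.1, 5756 and 5581, and differed by 0.27 ± 0.07 (adjusted p = 0.0123, and 0.724 with its probe sets averaged). In both genes the tamoxifen arrays lay above all DMSO arrays. Sgce had signals of 352, 377 and 459 with DMSO and 529, 638 and 441 with tamoxifen, which overlapped. Its call (0.40 ± 0.14, adjusted p = 0.0418) was lost without DMSO replicate 1 or 2 or tamoxifen replicate 1 or 2 (adjusted p up to 0.180) and under 5 other settings.

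Phlda2 had signals of 5075, 4195 and 4040.0 with DMSO and 2407, 2274 and 2346 with tamoxifen. The difference was -0.91 ± 0.08 (adjusted p = 5.62e-06) without overlap. Ascl2, a transcription factor of trophoblast progenitors in the same cluster, had signals of 178, 228 and 209.7 with DMSO and 64.1, 17.95 and 159 with tamoxifen. The tamoxifen arrays spread widely below the DMSO arrays, and the difference of -1.28 ± 0.36 (adjusted p = 0.0177) was not called without DMSO replicate 2 (0.0515). Rian had signals of 1694, 1598 and 1835 with DMSO and 1272, 1429 and 1478 with tamoxifen, without overlap, and fell by 0.29 ± 0.08 on the log2 scale (adjusted p = 0.0135, and 0.0625 without tamoxifen replicate 1).

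Its neighbours showed no call. Meg3 had signals of 4226, 4434 and 4538 with DMSO and 3855, 4258 and 4434 with tamoxifen (-0.07 ± 0.06, adjusted p = 0.373), and Mirg 204, 189 and 159 and 141, 192 and 213 (-0.02 ± 0.16, adjusted p = 0.937). Copg2, a coatomer subunit whose transcript meets that of Mest tail to tail, had signals of 998, 1234 and 1236 and 941, 899 and 938. Its difference of -0.30 ± 0.09 (adjusted p = 0.0214) was lost without DMSO replicate 2 or 3 or any 1 of the tamoxifen arrays (adjusted p up to 0.0862) and in the fit of all 18 arrays. Ddc had signals of 1006, 899.5 and 809 and 785, 716 and 684, and its difference of -0.30 ± 0.09 (adjusted p = 0.0294) was lost without DMSO replicate 1 or 2 or tamoxifen replicate 2 or 3 (adjusted p up to 0.111) and with its probe sets averaged. The calls of Ascl2, Copg2, Sgce, Ddc and Rian thus depended on single arrays, while those of Ndn, Impact, Igf2r, Phlda2, Cd81, Plagl1 and Gnas passed in each fit without 1 array.

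Fibroblast markers moved strongly in the same arrays. The summed signal of the 9 measured was 2350 to 2809 with DMSO and 15350 to 17690 with tamoxifen. Of all genes 17.5% were called higher, and of these markers 9 of 9 tested were. With DMSO 2 of them, Lum and Fap, were undetected, and with tamoxifen none. Lum and Fap were thus tested only through the group where they were high, so their place in this count supports nothing. Dcn, the proteoglycan decorin and itself imprinted in the placenta, averaged 225 ± 88.0 with DMSO and 2863 ± 268 with tamoxifen, while Mest averaged 1194 ± 37.7 and 1350.3 ± 61.3 and Igf2 1059 ± 183 and 935 ± 109. The sum of 8 pluripotent cell markers was 96270 to 98620 with DMSO and 84280 to 88860 with tamoxifen. The part of these markers' cells in the differences of the imprinted genes was not tested.

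**Figure D3:**
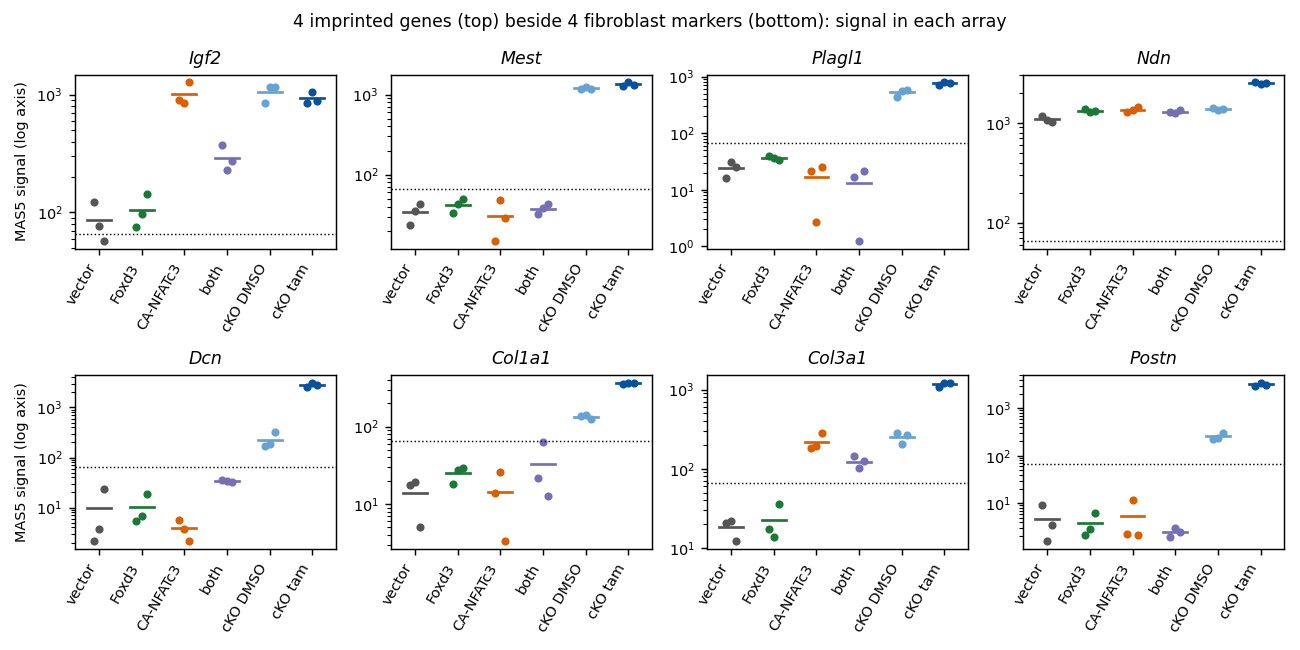
Signal of each array (log axis, short lines for means of 3, dotted line at 65.8) for 4 imprinted genes above and 4 fibroblast markers below. Dcn averages 225 with DMSO and 2863 with tamoxifen, where Mest averages 1194 and 1350.3. Among the transfected cells Col3a1 averages 18.1 with vector and 221 with CA-NFATc3, and is the 1 fibroblast marker called there of 3 tested. Dcn, Col1a1 and Postn lie below the line in every transfected array.

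The untreated knockout cells (with DMSO and no tamoxifen) and the vector cells differed in 23 of the 30 genes tested, 17 higher and 6 lower in the knockout cells. Over all genes 55.0% were called, 33.0% higher and 22.0% lower. The median difference over all genes was 0.11, to which each value below may be compared. Of the 30, 8 passed the filter only with the help of the knockout arrays. Of these, 6 were called higher, Mest, Plagl1, Nnat, Nap1l5, Dlk1 and Gatm, and Airn and Rasgrf1 were not called. Passing in this way requires a detected signal among the knockout arrays, so the count of 6 supports nothing. Among the 22 that also passed in the transfected arrays alone, 11 were called higher and 6 lower. Of these 22, 8 are paternally expressed, with 7 called higher and Kcnq1ot1 not called, and 10 are maternally expressed, with 3 higher and 5 lower. With quantile normalization, which brings the median of all genes to 0.003, 22 were called, 17 higher and 5 lower. The labels name CGR8 as the line of both. Genetic background, transfection, DMSO and arrays differ together between these groups and cannot be told apart.

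Mest, an enzyme-like protein of the alpha/beta hydrolase fold, was undetected in every transfected array. Its signals were 23.8, 34.7 and 43.1 with vector, 33.2, 42.6 and 50.3 in the arrays labelled Foxd3, 15.0, 47.9 and 28.6 with CA-NFATc3 and 31.8, 38.0 and 43.4 with both. In the knockout cells they were 1171, 1237 and 1173 with DMSO and 1299, 1418 and 1334 with tamoxifen. The DMSO mean was thus at least 18.1-fold above vector, counted against 65.8 (difference 4.23 ± 0.17, adjusted p = 1.13e-13), and the tamoxifen arrays lay slightly above the DMSO arrays without passing the test (adjusted p = 0.0694).

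Plagl1 was undetected in the same 12 arrays, at 15.8, 30.7 and 25.4 with vector, 40.0, 36.8 and 34.0 in the arrays labelled Foxd3, 21.6, 2.69 and 25.4 with CA-NFATc3 and 16.8, 1.26 and 21.6 with both. Its DMSO mean was at least 7.95-fold above vector (difference 3.31 ± 0.21, adjusted p = 7.01e-11). The other 2 Plagl1 probe sets were undetected in every array, also in the knockout cells. Igf2 differed by 3.24 ± 0.21 (adjusted p = 1.40e-10), so that its signals in the untreated knockout cells overlapped those of the transfected cells with CA-NFATc3. Sgce differed by 1.80 ± 0.21 (adjusted p = 4.52e-07). Its partner Peg10 had signals of 96.5, 98.4 and 91.1 with DMSO and 132, 87.6 and 75.9 with tamoxifen, at least 1.45-fold above vector with DMSO (1.47 ± 0.26, adjusted p = 8.24e-05).

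**Figure D4:**
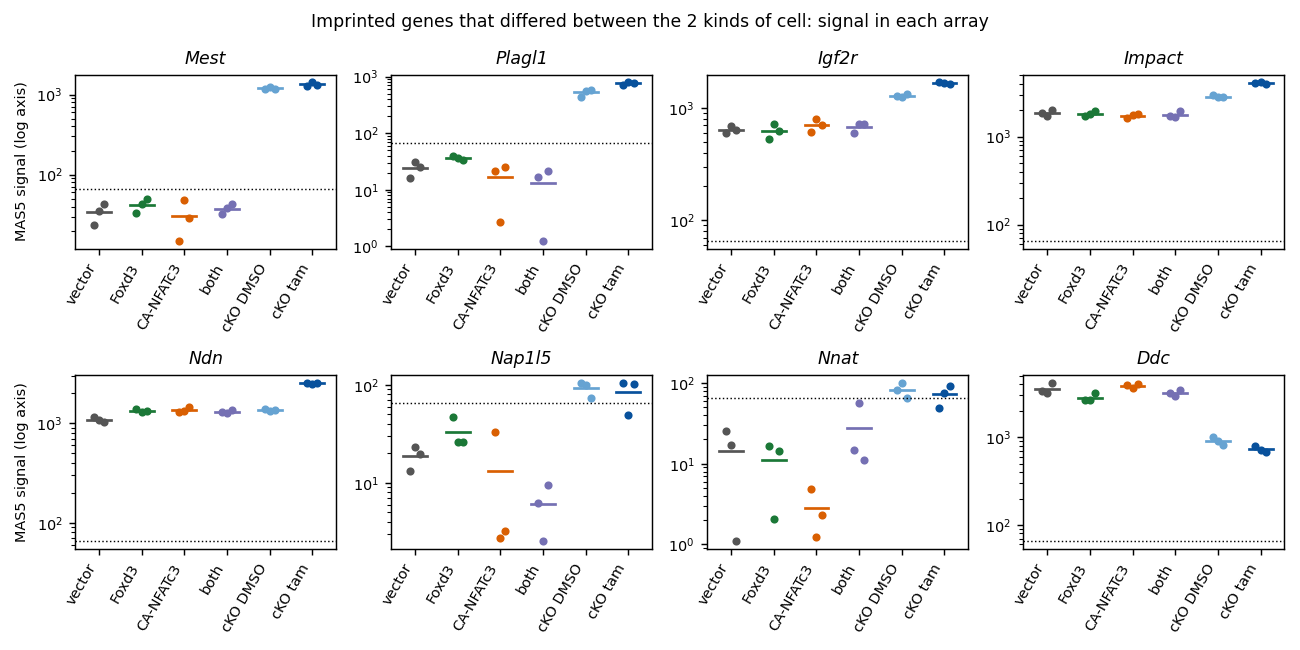
Signal of each array (log axis, short lines for means of 3, dotted line at 65.8) for 8 imprinted genes in the 6 groups. Mest and Plagl1 lie below the line in all 12 transfected arrays and above it in all 6 knockout arrays, Ndn averages 1371 with DMSO and 2516 with tamoxifen, and Ddc is lower in the knockout cells.

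Other genes near the detection threshold were also higher. Nnat, which encodes the membrane proteolipid neuronatin, had signals of 25.6, 16.9 and 1.11 with vector, 16.8, 2.04 and 14.3 in the arrays labelled Foxd3, 4.89, 1.23 and 2.35 with CA-NFATc3 and 15.0, 56.3 and 11.1 with both, and 82.3, 101 and 65.6 with DMSO and 49.6, 75.9 and 92.9 with tamoxifen. Nap1l5, of the nucleosome assembly protein family, had 13.2, 23.2 and 19.8 with vector, 47.3, 26.0 and 26.2 in the arrays labelled Foxd3, 33.4, 2.77 and 3.27 with CA-NFATc3, 6.32, 2.57 and 9.57 with both, 104, 100.3 and 74.2 with DMSO and 105, 49.2 and 102 with tamoxifen. Neither was detected in a transfected array. The DMSO means were at least 1.26-fold and at least 1.41-fold above vector (adjusted p = 0.000508 and 0.000336). Gatm, an enzyme of creatine synthesis, had signals of 44.2, 36.1 and 30.2 with vector, 39.3, 54.5 and 27.6 in the arrays labelled Foxd3, 30.7, 64.3 and 52.0 with CA-NFATc3, 59.4, 35.6 and 38.9 with both, 77.1, 109 and 130.4 with DMSO and 98.2, 147 and 82.9 with tamoxifen, and its DMSO mean was at least 1.60-fold above vector (adjusted p = 0.00106).

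Dlk1 had signals of 22.6, 33.7 and 41.7 with vector, 57.5, 59.3 and 37.8 in the arrays labelled Foxd3, 69.7, 51.1 and 58.8 with CA-NFATc3 and 28.8, 59.1 and 28.3 with both, and 97.8, 75.3 and 60.9 with DMSO and 77.0, 59.1 and 69.5 with tamoxifen. Its DMSO mean was at least 1.19-fold above vector (adjusted p = 0.00431, and 0.0520 with quantile normalization). Magel2, a MAGE family gene beside Ndn, had 62.5, 69.5 and 80.9 with vector, 50.1, 60.7 and 39.5 in the arrays labelled Foxd3, 39.1, 88.4 and 71.7 with CA-NFATc3, 92.1, 71.6 and 84.7 with both, 161, 134 and 142 with DMSO and 194, 135 and 188 with tamoxifen. Its knockout arrays were above all transfected arrays, by 0.79 ± 0.19 for DMSO against vector (adjusted p = 0.00166).

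Ascl2 had signals of 55.1, 71.6 and 78.8 with vector, 55.8, 73.6 and 86.9 in the arrays labelled Foxd3, 37.8, 56.9 and 40.8 with CA-NFATc3 and 11.96, 51.5 and 58.6 with both. Its DMSO arrays stood above all of these, by 1.24 ± 0.34 over vector (adjusted p = 0.00391). Igf2r had signals of 597, 696 and 636 with vector, 528, 723 and 621 in the arrays labelled Foxd3, 612, 793 and 705 with CA-NFATc3 and 597, 719.5 and 716 with both, and its difference was 0.97 ± 0.11 (adjusted p = 2.24e-07). Airn, the noncoding RNA that silences Igf2r on the paternal chromosome, averaged 49.9 with vector and 77.0 with DMSO in overlapping groups (adjusted p = 0.0892).

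Impact had signals of 1872, 1702 and 2016 with vector, 1707, 1788 and 1954 in the arrays labelled Foxd3, 1609, 1770.2 and 1817 with CA-NFATc3 and 1712, 1651 and 1937 with both. All knockout arrays exceeded them, and the difference was 0.60 ± 0.08 (adjusted p = 1.32e-06). Peg3, at 2230.1, 2423 and 2971 with DMSO and 2643, 2780.5 and 2764 with tamoxifen, differed by 0.49 ± 0.09 (adjusted p = 0.000150). Gnas differed by 0.62 ± 0.07 (adjusted p = 5.79e-07, and 0.205 with its probe sets averaged), Ndn by 0.33 ± 0.07 (0.000349, and 0.174 with that mean), and Cd81 by 0.24 ± 0.08 (0.0169, lost without vector replicate 1 or DMSO replicate 3, up to 0.126). The Cd81 groups overlapped.

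Lower in the untreated knockout cells were Ddc, the Dlk1-Meg3 RNAs, Phlda2 and Tssc4. Ddc differed by -1.93 ± 0.10 (adjusted p = 7.60e-12), without overlap, while its neighbour Grb10, at 3122, 2943 and 3609 with DMSO and 2708, 2995 and 2918 with tamoxifen, was not called (-0.15 ± 0.11, adjusted p = 0.262). Mirg differed by -0.97 ± 0.15 (adjusted p = 2.06e-05), Rian by -0.63 ± 0.10 (1.40e-05) and Meg3 by -0.20 ± 0.08 (0.0401). The Meg3 groups overlapped, and its call was lost without vector replicate 2 or 3 or any 1 DMSO array (adjusted p up to 0.204), without the filter, with quantile normalization and with its probe sets averaged. Phlda2 differed by -0.74 ± 0.09 (adjusted p = 1.44e-06). Tssc4, of the Kcnq1ot1 cluster, had signals of 782, 741 and 750.0 with vector, 733, 757 and 905 in the arrays labelled Foxd3, 703, 675 and 766 with CA-NFATc3, 974, 904 and 709.6 with both, 741, 523 and 579 with DMSO and 642, 602 and 539.8 with tamoxifen. Its difference of -0.30 ± 0.12 (adjusted p = 0.0431) was lost without any 1 vector array or DMSO replicate 2 or 3 (adjusted p up to 0.218) and without the filter. Copg2 did not pass (1126, 1224 and 1244 with vector, 913, 1299 and 1100.2 in the arrays labelled Foxd3, 977, 1493 and 1274 with CA-NFATc3 and 1057, 1441 and 1079.6 with both; adjusted p = 0.758).

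**Figure D5:**
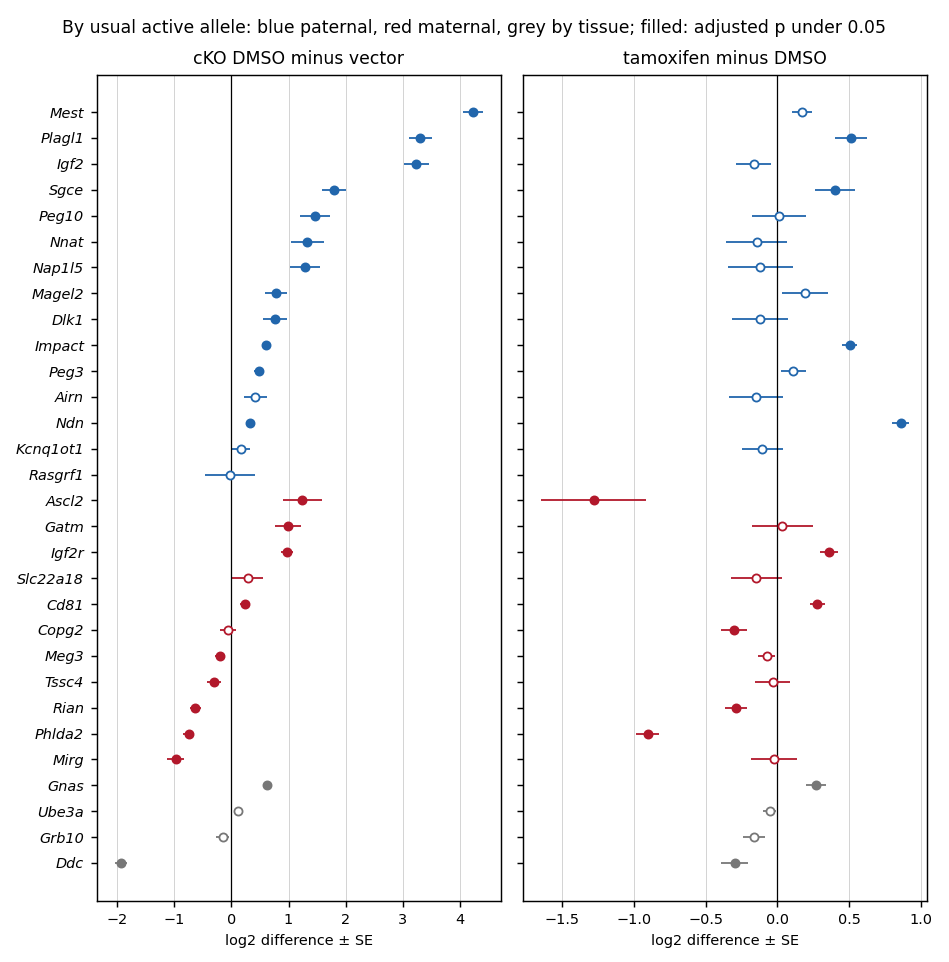
Differences (log2 of signal + 32, with SE) for the imprinted genes tested, untreated knockout cells minus vector at the left and tamoxifen minus DMSO at the right, coloured by the usually active allele, with filled points for adjusted p under 0.05. At the left Mest stands at 4.23 and Ddc at -1.93. Mest, Plagl1, Nnat, Nap1l5, Dlk1, Gatm, Airn and Rasgrf1 passed the filter there only with the knockout arrays. The right panel has another axis range, from Ascl2 at -1.28 to Ndn at 0.86.

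Other cell types' markers differed between these cells too. The fibroblast sum was 226 to 328 with vector, where 8 of the 9 were undetected, and 2350 to 2809 with DMSO, with 7 of 9 called higher. The trophoblast sum was 3468 to 4100 with vector and 11690 to 15980 with DMSO, with Elf5, Gata3 and Tpbpa undetected in both. Of 10 tested, 8 were called higher and 1, Tfap2c (-1.04), lower. Krt8 (4985) and Krt18 (4838) had the highest DMSO means. The primitive endoderm sum was 7196 to 8313 with DMSO, with 7 of 11 called higher and Sox7 (-0.93) and Lama1 (-0.81) lower. The brightest of them, Lamb1, averaged 5033. The primed epiblast sum was 15600 to 17520, most of it Dnmt3b (13291), with 6 of 7 called higher. Of 8 pluripotent cell markers, 5 were called lower, among them Nanog (-1.29) and Esrrb (-1.49), and 1 higher. Over all genes 33.0% were called higher and 22.0% lower. Col1a1, Postn, Dcn, Pdgfra, Cdx2 and Fgf5, all called higher, passed the filter only with the help of the knockout arrays. So did Lum, Fap and Gata4, which were not called. Passing in this way requires a detected signal among the knockout arrays, so these calls support nothing. The part of these markers' cells in the imprinted gene differences was not tested.

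The remaining genes varied little or stayed near background. Kcnq1ot1, the noncoding RNA that silences its cluster on the paternal chromosome, averaged 349.6 with CA-NFATc3 at the lowest and 429 with DMSO at the highest, and was called in no comparison, though for DMSO against vector it was with its probe sets averaged (adjusted p = 0.0354). Ube3a, a ubiquitin ligase imprinted in neurons, averaged 4802 to 5282, and the transporter Slc22a18 46.0 to 84.8. Neither was called, though Ube3a was higher with DMSO than with vector after quantile normalization (adjusted p = 0.00369). Rasgrf1, an exchange factor for Ras, reached detection in 3 of 18 arrays, with group means from 20.7 to 48.7. Group means ran from 9.60 to 27.8 for Usp29, from 17.6 to 37.5 for Zim1, from 20.1 to 51.4 for Snrpn and from 12.5 to 64.5 for Asb4, all below 65.8, where values have no order. Without the filter Asb4 was called higher with DMSO than with vector (adjusted p = 0.0221).

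Beyond the 37 genes, 42 of 51 further imprinted genes were measured, and Cdkn1c and Calcr were higher in both groups whose label holds Foxd3. In the arrays labelled Foxd3, 2 of 29 tested were higher and 1 lower, where 2.88% of all genes were called. Cdkn1c, an inhibitor of cyclin-dependent kinases that neighbours Phlda2, averaged 306 ± 64.2 with vector and 1615 ± 344 in the arrays labelled Foxd3, a difference of 2.28 ± 0.18 (adjusted p = 2.63e-06). Calcr, the calcitonin receptor gene near Peg10, differed by 1.85 ± 0.18 (adjusted p = 1.54e-05), and Cobl by -0.40 ± 0.10 (0.0462). So within the Kcnq1ot1 cluster Cdkn1c differed by over 2 units of log2 while Phlda2, at 0.19, was not called (adjusted p = 0.366). With both, Cdkn1c (1.91) and Calcr (1.49) were again higher than vector.

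With CA-NFATc3, Sfmbt2 (0.79 ± 0.10), Pon2 (0.63), Inpp5f (0.42) and Ppp1r9a (0.39) were higher, 4 of 29, where 4.62% of all genes were called higher. Against CA-NFATc3, the arrays with both had Cdkn1c (2.06), Calcr (1.44) and Atp10a (0.48) higher and Sfmbt2 (-0.56) lower. Pon2 and Ppp1r9a lie in the neighbourhood of Peg10 and Sgce, which were higher in the same arrays. With tamoxifen 12 of 31 were higher and 6 lower, where 34.4% of all genes were called (17.5% higher, 16.9% lower). The higher ones were Dcn (3.54), Tfpi2 (2.76), Peg12 (1.19), Ampd3 (0.91), Qpct (0.90), Osbpl5 (0.84), Pon3 (0.83), H13 (0.55), Sfmbt2 (0.48), Zdbf2 (0.37), Casd1 (0.33) and Pon2 (0.32). The lower ones were Cobl (-1.21), Dhcr7 (-0.76), Cdkn1c (-0.59), Slc38a4 (-0.35), Gab1 (-0.23) and Commd1 (-0.20).

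In the untreated knockout cells against vector, 13 of 33 were higher and 6 lower, near the background of 55.0% of all genes called (33.0% higher, 22.0% lower). Only 29 of the 33 also passed the filter in the transfected arrays alone. Dcn did not, so its place in this count supports nothing. Higher were Dcn (2.60), Tfpi2 (2.37), Cdkn1c (1.85), Pon2 (1.85), Osbpl5 (1.24), Dhcr7 (0.99), Pon3 (0.79), Gab1 (0.79), Atp10a (0.51), Sfmbt2 (0.50), Smoc1 (0.47), Inpp5f (0.25) and Blcap (0.22). Lower were Cobl (-1.24), Gpr1 (-0.75), Calcr (-0.60), Commd1 (-0.58), Casd1 (-0.44) and Jade1 (-0.23). Calcr was thus lower where Cdkn1c was higher, unlike in the arrays labelled Foxd3.

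Among 28 tested genes that set, keep or remove DNA methylation and related chromatin marks, 3 were higher and 1 lower in the arrays labelled Foxd3, where 1.71% of all genes were called higher and 1.17% lower. Dnmt3b, a de novo methyltransferase, differed by 1.20 ± 0.16 (adjusted p = 0.000612) there, Dnmt3a by 0.87 ± 0.20 (0.0239), Lin28a by 0.50 ± 0.09 (0.00502) and Tet2 by -0.41 ± 0.09 (0.0134). With CA-NFATc3, Dnmt3b (0.68) and Atrx (0.28) were higher and Tet2 (-0.41) lower. Zfp57, the keeper of imprints whose hexamer is marked above, was called in no comparison. It averaged 289.9 ± 39.2 with vector and 195 ± 6.51 with tamoxifen, groups that were not compared directly. With both, Dnmt3b (1.01), Dnmt3a (0.78) and Lin28a (0.44) were higher than vector and Tet2 (-0.34) lower, and against CA-NFATc3 Dnmt3a (1.15) and Lin28a (0.59) were higher and Atrx (-0.25) lower.

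With tamoxifen 12 of the 28 were lower and 2 higher, where 16.9% of all genes were called lower and 17.5% higher. Dnmt3a (-0.78), Lin28a (-0.58), Ezh2 (-0.38), Ehmt2 (-0.35), Dnmt3b (-0.31), Uhrf1 (-0.30), Tet1 (-0.28), Kdm1a (-0.27), Tet2 (-0.25), Cbx5 (-0.20), Ctcf (-0.19) and Hells (-0.17) fell, and Atrx (0.33) and Dppa3 (0.24) rose. Between the untreated knockout cells and vector, 12 were higher and 8 lower, where 33.0% of all genes were called higher and 22.0% lower. Dnmt3b (1.60), Dnmt3a (1.31), Dppa3 (0.98), Ehmt2 (0.54), Kdm1b (0.52), Ehmt1 (0.47), Ezh2 (0.44), Kdm1a (0.42), Arid4b (0.33), Smchd1 (0.26), Atrx (0.19) and Dnmt1 (0.18) were higher. Tet2 (-0.85), Eed (-0.61), Arid4a (-0.56), Trim28 (-0.47), Ctcf (-0.39), Suz12 (-0.35), Tet1 (-0.33) and Zfp445 (-0.16) were lower. The arrays give no methylation level at any imprinted locus.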

How the data were processed

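Total RNA was hybridised to Affymetrix mouse arrays of 45101 probe sets, 1 biotin-labelled sample per array, 18 in all. The deposited values are 1 linear intensity for each probe set. MAS5 made them, per the submitters' processing notes. In each array they average 500 once 2% at either end is dropped, as the values show. The sources used here give no detection calls. Of the probe sets, 34945 had 1 gene symbol in the platform annotation and 932 several; genes were named from the former.

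Differences are of log2(signal + 32). Genes reaching 65.8 in at least 3 arrays of a fit were tested by limma 3.58.1 under R 4.3.3 (linear model and trended eBayes, two-sided, Benjamini-Hochberg over all genes): 11609 in the 12 transfected arrays, 12093 in the 6 knockout arrays and 12678 in all 18. The script was tested on simulated data first. An "at least" fold sets values of the dimmer group below 65.8 to 65.8. With 3 arrays a group, precision rests on the number of arrays. The 37 genes, the lists and the tests were chosen with earlier results of these data known. Each gene called in any comparison was to be given in every array, as was any cluster gene whose group means spanned 2-fold; Usp29, Zim1, Snrpn and Asb4, detected in at most 1 array, are given by range.

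Same-numbered transfected arrays deviated together (18 pairs, r 0.104 to 0.315, against -0.282 to 0.0133 for 36 other pairs), so a fit with the replicate number as a block is given where it changed a call. In the knockout cells the 3 same-numbered pairs gave -0.0425 to 0.0152. Alternatives were another offset, no filter, quantile normalization, the mean of a gene's probe sets, array weights, other sets of arrays in the fit, each array left out and, chosen after seeing the data, all probe sets tested. Plots used matplotlib 3.10.9 under Python 3.11.15.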

Additional observations from a re-analysis of the deposited data

Results flagged for a closer look

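Igf2 differed between conditions in how its signal went with the Foxd3 label: the interaction tested with limma was -1.92 ± 0.33 on the log2 scale (adjusted p = 0.00748) over the 12 transfected arrays.

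The probe set annotated jointly to Mir675 and H19 lay outside the comparisons. Its signal averaged 413 ± 71.5 in the untreated knockout cells and 415 ± 44.1 with tamoxifen (SD, n = 3), against 42.2 ± 8.78 with vector. The single arrays gave 346, 403 and 488 with DMSO and 365, 431 and 448 with tamoxifen, and 27.8 to 66.7 in the transfected arrays, so the 2 kinds of cell did not overlap. Counted against 65.8, the ratios to vector were at least 6.27 and at least 6.30. The difference was not tested.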

How the results depend on the processing

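Of 61 calls of an imprinted gene in a comparison, 37 held under every alternative that kept all arrays, 45 held in every fit without 1 array in which the gene was tested, 32 held in both, and 0 reversed. The mean of a gene's probe sets ended 20 calls, no filter 5, quantile normalization 4, all probe sets tested 4, only the groups compared 3, all 18 arrays in 1 fit 3, and an offset of 1, array weights and the replicate block 1 each. That mean includes undetected probe sets of Igf2 and Gnas.

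With the replicate block, the count of imprinted genes called in the arrays labelled Foxd3 against vector was 7 in place of 4. In the knockout cells, whose numbers did not pair, the block left 11 of 12, and Sgce was lost. With the mean of probe sets the counts were 3 for CA-NFATc3 against vector, 5 for both against CA-NFATc3, 0 for both against Foxd3 (limma; 4 at an unadjusted p under 0.05), 0 for the interaction (4 unadjusted) and 7 for tamoxifen. With only the groups compared they were 3 for CA-NFATc3 and 1 for both against Foxd3, and 1 for the latter with all probe sets tested. Leaving out 1 array gave 3 to 5 for CA-NFATc3 against vector and 0 to 2 for both against Foxd3 (3 to 5 unadjusted where the count was 0).

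Over all genes, calls rose with the block from 680 to 1104 for CA-NFATc3 against vector. Array weights gave 552 for the Foxd3 label against vector and 172 for the interaction, against 334 and 94. The mean of probe sets gave 220 for the former, 341 in place of 559 for both against vector and 25 in place of 38 for both against Foxd3. All 18 arrays in 1 fit gave 63 and 161 for both against Foxd3 and the interaction. Depth has no counterpart here: genes near 65.8 have bounds only.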

Other observations

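Snrpn, the paternally expressed splicing protein gene, shares its transcript with Snurf, and 4 probe sets annotated jointly to both were bright in all 18 arrays, while 2 further joint sets averaged 6.45 to 78.6 and the probe set of Snrpn alone was undetected. The brightest averaged 1840.1 ± 223 with vector, 2054 ± 37.4 where the label was Foxd3, 1921 ± 569 for CA-NFATc3, 2150.2 ± 128 with both, 1985 ± 49.9 with DMSO and 1778 ± 209 with tamoxifen (SD, n = 3). Its groups overlapped. Another averaged 487 ± 22.1 with vector, 326 ± 14.5 with DMSO and 282 ± 34.0 with tamoxifen, and here every knockout array lay below every transfected array. These probe sets were not tested.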
